A study of Mus musculus with 18 samples.

Results

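Lars2 encodes the mitochondrial leucyl-tRNA synthetase, and its transcript was followed through 18 libraries of Neuro2A cells. It was chosen by its large spread of normalized counts between nuclear libraries, and is set beside the mitochondrial rRNA locus that holds mt-Rnr2. Of 168136 loci in the count table, 52179 carried a gene symbol, 1 held Lars2 and 1 held mt-Rnr2. The cells, labelled WT, are an established mouse neuroblastoma line. In 4 of the 6 groups they received a biotinylated mimic at 25 nM, either miR-92b or a scrambled sequence (Scr). The third treatment, labelled Control, was cells without a mimic. RNA was collected on streptavidin beads, which hold the biotin of a mimic, from nuclear or from whole cell lysates, poly(A) RNA was selected with oligo-dT, and stranded libraries were sequenced. This gave nuclear Control, nuclear Scr, nuclear miR-92b, whole cell Control, whole cell Scr and whole cell miR-92b, with 3 samples each. The supplement speaks of separate experiments for the RT-qPCR check of the pulldown, but the sources do not say whether the sequenced samples of a group came from separate cultures. If they did not, p-values measure only the spread between these samples, which may be technical. Values are normalized counts, for which each library's reads were divided by a size factor of its own.

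Leucyl-tRNA synthetase 2 is encoded in the nucleus, translated in the cytosol and imported into mitochondria, where it loads leucine onto the mitochondrial leucine tRNAs. mt-Rnr2 is the 16S rRNA of the large subunit of the mitochondrial ribosome. It is transcribed inside mitochondria, as part of a long RNA with its neighbours on the mitochondrial chromosome, and stays there. Both genes therefore serve mitochondrial protein synthesis, but their RNAs are made in different compartments.

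The Lars2 locus lay on chromosome 9 at chr9:123366927-123462666 (GRCm38, plus strand) and was joined with no other gene. GENCODE release M21 lists 9 transcripts there. The longest coding one has 3894 nucleotides in 21 exons. mt-Rnr2 lies at chrM:1094-2675 on the plus strand, and the files joined it with mt-Rnr1, mt-Nd1, mt-Nd2 and tRNA genes in 1 locus, chrM:1-5016. The name under which Lars2 was proposed speaks of similarity to mitochondrial rRNA, and this was checked on the annotated transcripts. The 1582 bases of mt-Rnr2 were aligned to 141767 transcripts, and none of the 9 Lars2 transcripts aligned. The longest runs that a Lars2 transcript shared with mt-Rnr2, on either strand, had 12 bases. The one on the same strand in exon 2 of the longest coding transcript (chr9:123371957-123371968) and its copy in mt-Rnr2 (chrM:1228-1239) are shown with 9 bases on each side, from GENCODE, with the shared bases in capitals.
Lars2: atcctgtggGAAAGACTAATTccagggtgt
mt-Rnr2: gggaaagatGAAAGACTAATTaaaagtaag
Only 14 of the 30 bases in these windows were identical. Outside chromosome M, 0 genes aligned to mt-Rnr2 with at least 90% identity over at least 100 bases. The closest were Gm20594, with 88.5% identity over 435 bases, and a transcript of Cep295 with a retained intron, with 77.9% over 662 bases. In these annotated transcripts, then, the similarity in the name was not found. Introns of Lars2 and the rRNAs of the cytosolic ribosome were not analysed here.

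The mimic itself is shown to ask whether Lars2 carries a site for it. The mature sequence of miR-92b-3p (RefSeq, GRCm38.p6, chr3:89227126-89227147, minus strand) has its seed, bases 2 to 8, in capitals.
miR-92b-3p: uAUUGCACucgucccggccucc
The letters that pair with the seed are GTGCAAT. This site, TGCAATA (its last 6 bases followed by an A) and GTGCAATA (both together) were searched on the transcript strand, with overlaps counted. Each was present 0 times in all 9 Lars2 transcripts. For comparison, GTGCAAT was present in 13.5%, TGCAATA in 15.6% and GTGCAATA in 3.92% of 4536 protein-coding transcripts of 3500 to 4300 nucleotides. The absence of these letters says nothing about pairing of another kind.

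Between 3752991 and 22920037 reads per library lay on loci with a symbol, and 15579 of these loci averaged 10 or more over the 18 libraries and were tested. Of the neuroblastoma markers, Hand2 (671 to 1612 over all libraries), Stmn2 (309 to 1695) and the locus of Gata3 (71.2 to 267) were present in every library. Tubb3 was not analysed here. The leukocyte gene Ptprc, the macrophage gene Cd68 and the hepatocyte gene Alb did not exceed 8.07.

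Lars2 in nuclear libraries was given here as a description, since this spread was the reason for its choice. In nuclear Scr libraries the normalized counts were 1147, 55278 and 8729 in samples 1, 2 and 3. The same samples had 753, 48030 and 6922 reads on Lars2. Sample 2 thus stood 48.2-fold above sample 1 of its own group. In nuclear Control libraries the values were 988, 1556 and 6819, with sample 3 standing apart upward. In nuclear miR-92b libraries they were 1341, 720 and 1336, all within 1.86-fold. The lowest libraries of Scr and Control lay within the miR-92b range, so the 3 groups overlapped. The group means were 21718 ± 29310 for Scr, 3121 ± 3215 for Control and 1132 ± 357 for miR-92b (SD, n = 3), and for Scr and Control the SD exceeded the mean.

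Whole cell libraries were far closer together. In whole cell Control the values were 5748, 5853 and 5832, a range of 1.02-fold. Whole cell Scr gave 9977, 3778 and 3688, with sample 1 highest. For whole cell miR-92b they were 4028, 6634 and 2800. The means were 5811 ± 55.5 for Control, 5815 ± 3605 for Scr and 4487 ± 1958 for miR-92b (SD, n = 3). From lowest to highest, the libraries spanned 3.56-fold in whole cell and 76.8-fold in nuclear lysates.

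**Figure D1:**
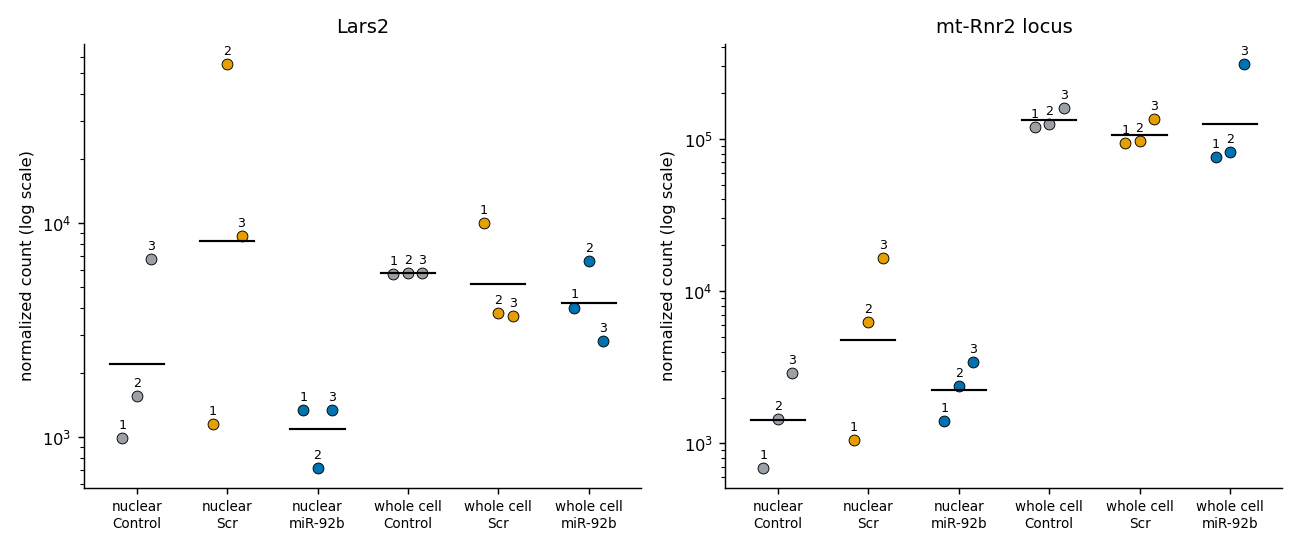
Normalized counts of Lars2 (left) and of the mt-Rnr2 locus (right) on a log scale in the 6 groups, with 1 point per library, numbered by sample, and a bar at the group mean of log2(normalized count + 1). Lars2 is highest in nuclear Scr sample 2 at 55278, while the mt-Rnr2 locus is highest among nuclear libraries in Scr sample 3 at 16584 and lies above that in all whole cell libraries.

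Ordered by the mean of log2(normalized count + 1), Lars2 ran from nuclear miR-92b (10.09 ± 0.52) over nuclear Control (11.10 ± 1.46), whole cell miR-92b (12.04 ± 0.62), whole cell Scr (12.34 ± 0.82) and whole cell Control (12.50 ± 0.01) to nuclear Scr (13.00 ± 2.80; SD, n = 3). Each neighbouring pair in this order overlapped in its libraries. On the same log2 scale, the difference of nuclear miR-92b to nuclear Scr was -2.91, that of nuclear miR-92b to nuclear Control -1.01 and that of nuclear Scr to nuclear Control 1.91. These differences moved with single libraries. Without Scr sample 2 the difference of miR-92b to Scr fell in size from -2.91 to -1.54, and without Scr sample 1 it was -4.33. That of miR-92b to Control was -0.19 without Control sample 3. Scr exceeded Control by 0.53 without Scr sample 2.

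The 2 compartments were described in the same way, without a test. The difference of nuclear to whole cell Lars2 (log2) was -1.95 with miR-92b, where the groups did not overlap, and -1.41 in Control, where they did. With Scr it was 0.66, again with overlap, and without nuclear Scr sample 2 it was -0.71. In bulk libraries a transcript present in fewer cells and less of it per cell cannot be told apart.

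As a share of the reads on loci with a symbol, Lars2 took 0.930% in nuclear Scr sample 2 (95% Wilson interval 0.922 to 0.939, counting error only). There it was locus number 4 by reads. In nuclear Scr sample 3 the share was 0.148% (0.144 to 0.151) and in nuclear Control sample 3 it was 0.115% (0.111 to 0.118). The 6 other nuclear libraries held between 0.0126% and 0.0269%, with Lars2 at place 653 or lower. Whole cell libraries held between 0.0416% and 0.172%. The 3 high nuclear libraries thus reached or passed the whole cell range.

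High spread is common among loci with few reads, so Lars2 was also placed among loci of similar level. Its place in nuclear libraries is a description, since it rests on the spread by which the gene was chosen. The SD of log2(normalized count + 1) over the 9 nuclear libraries was 2.05 for Lars2, against a median of 0.54 over the 15579 tested loci, which put it at place 1246 from the highest. Among the 1233 loci with a nuclear mean of at least 1000, where the median SD was 0.18, Lars2 came first and the mt-Rnr2 locus second with 1.40. Without nuclear Scr sample 2 the SD of Lars2 was 1.32, at place 2 of 1235. Without the 3 high libraries it was 0.40, at place 27 of 1226. Over the 9 whole cell libraries, which did not enter the choice, the SD of Lars2 was 0.55, below the median of 0.68 of all tested loci. Among the 1289 loci with a whole cell mean of at least 1000, where the median was 0.26, it was at place 99, and the mt-Rnr2 locus, with 0.61, at place 60.

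**Figure D2:**
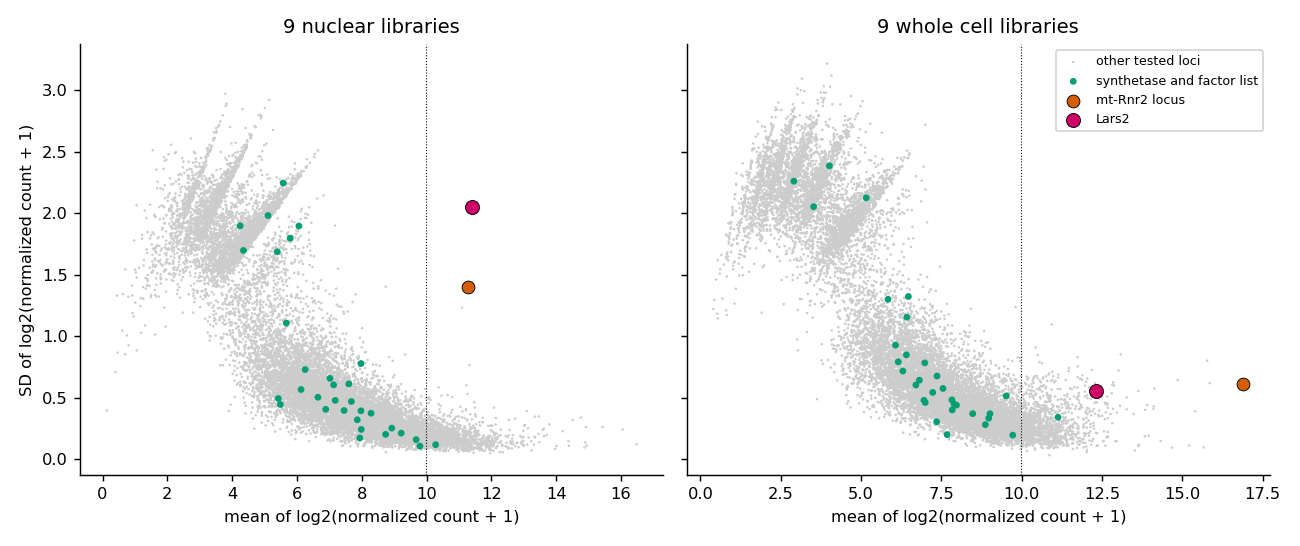
SD of log2(normalized count + 1) against its mean for the 15579 tested loci over 9 nuclear (left) and 9 whole cell (right) libraries, with the dotted line at a normalized count of 1000. Right of the line, Lars2 (2.05) and the mt-Rnr2 locus (1.40) lie above the other loci in nuclear libraries, while in whole cell libraries (0.55 and 0.61) other loci reach above them.

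Loci with a single library far above all others were few. The place of Lars2 among them is a description, since it rests on the nuclear spread by which the gene was chosen. Only 7 of 15579 tested loci had a highest library at least 5-fold above the next of the 18, and Lars2, with 5.54-fold, was the only one of these with a mean of at least 1000. Nuclear Scr sample 2 was the highest library for 3 of the 7. The other two were the locus that joins Tmem38b, a cation channel of the endoplasmic reticulum, with the 5S rRNA gene n-R5s185 (395 against 63.1 in the next library) and Gm37053 (177 against 32.0). These were named after their values were seen.

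The mt-Rnr2 locus followed another order of libraries. Its nuclear values were 693, 1444 and 2914 in Control samples 1 to 3, 1050, 6229 and 16584 in Scr, and 1404, 2379 and 3427 in miR-92b. Whole cell values were 118921, 125547 and 158309 in Control, 93829, 96353 and 134609 in Scr, and 76017, 82370 and 309541 in miR-92b. Every whole cell library thus lay above every nuclear one. Averaged over treatments, the locus was lower in nuclear lysates by a log2 fold change of -5.60 ± 0.38 (SE; limma, adjusted p = 1.8e-10). For Lars2, described the same way, the difference was -0.90, and from -1.50 to -0.30 over the alternatives. By reads, the mt-Rnr2 locus came first or second in all whole cell libraries, and between place 16 and place 1869 in nuclear libraries. These are reads of the joined locus, in which mt-Rnr2 was not told apart from mt-Rnr1, mt-Nd1, mt-Nd2 and tRNA genes.

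Nuclear Scr sample 3, Scr sample 2 and Control sample 3 were the highest 3 nuclear libraries for Lars2. For the mt-Rnr2 locus Scr samples 3 and 2 led as well, but miR-92b sample 3 came before Control sample 3. The ratio of Lars2 reads to reads on the mt-Rnr2 locus was 8.87 in nuclear Scr sample 2, 0.526 in Scr sample 3 and 2.34 in Control sample 3. In the other nuclear libraries it lay between 0.302 and 1.43, and in whole cell libraries between 0.00905 and 0.106. The 2 loci did not keep a fixed ratio in either compartment.

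**Figure D3:**
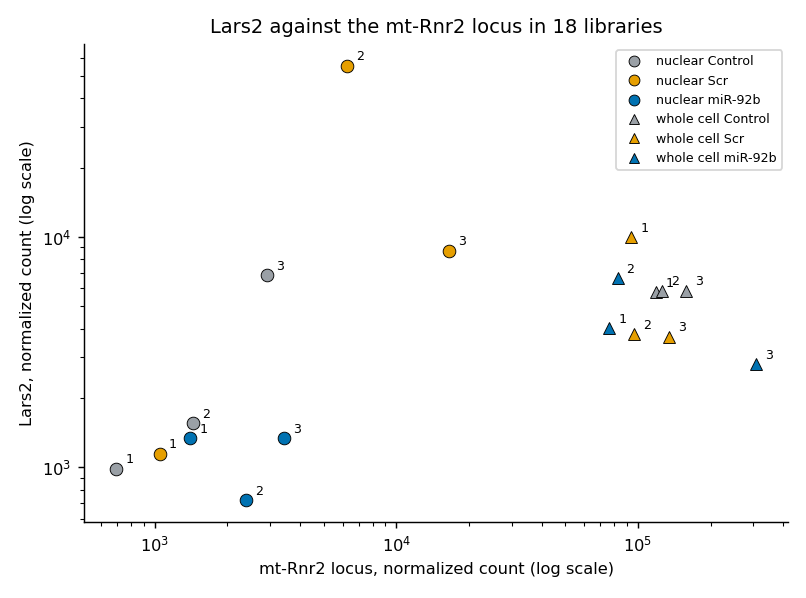
Normalized counts of Lars2 against those of the mt-Rnr2 locus on log scales, with 1 point per library, numbered by sample. Nuclear libraries (circles) run from low to high on both axes, with Scr sample 2 far above the rest on the Lars2 axis, and whole cell libraries (triangles) lie to the right, with miR-92b sample 3 highest for the mt-Rnr2 locus (309541) and lowest for Lars2 (2800).

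Over the 9 nuclear libraries the log2 values of the 2 loci correlated with r = 0.70 (Spearman's rho 0.68), which is given as a description, since the points share library and depth and the spread chose the gene. By r, the mt-Rnr2 locus was at place 922 of 15578 other loci, and the 95th percentile over them was 0.72. Leaving out 1 nuclear library at a time gave r between 0.67 and 0.74. Without Scr samples 2 and 3 it was 0.40, and without Control sample 3 as well it was 0.01 over 6 libraries. Other mitochondrial loci behaved similarly in nuclear libraries. The locus from mt-Co1 to mt-Nd5, which holds subunits of the respiratory chain, had r = 0.77 with Lars2, that of mt-Cytb, a subunit of complex III, had 0.82, and mt-Nd6, read from the opposite strand, had 0.49. Among themselves the first 2 of these followed the mt-Rnr2 locus with r = 0.96 and 0.97. Of the remaining 8 loci on chromosome M, all single tRNA genes, 7 were at 0 in every library and mt-Ts1 did not exceed 3.12.

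Over the 9 whole cell libraries the relation had the opposite sign and was not significant. Pearson's r was -0.50 (two-sided exact permutation test, p = 0.174, n = 9) and Spearman's rho was -0.47 (exact permutation p = 0.212, n = 9), with 1 such relation tested. After removal of miR-92b samples 1 and 3, the libraries farthest from the median of the mt-Rnr2 locus, r was -0.32 (exact permutation p = 0.486, n = 7). Without miR-92b sample 3 alone it was -0.06. The labels give no batch or run within which it could be repeated.

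No difference of Lars2 between treatments passed the test in whole cell libraries, which did not enter the choice of the gene. Between miR-92b and Scr the log2 fold change was -0.30 ± 0.35 (SE; 95% interval -1.03 to 0.44; limma, adjusted p = 0.864). This interval runs from 0.488 to 1.36 times the Scr level. In that comparison 1 of 15579 loci was called at an adjusted p under 0.05 (0.00642%), so Lars2 shares its result with nearly all loci. Against Control, miR-92b gave -0.46 ± 0.35 (-1.20 to 0.27; limma, adjusted p = 1), with 1 locus called (0.00642%), and Scr gave -0.17 ± 0.35 (-0.90 to 0.57; limma, adjusted p = 1), with 0 loci called (0%). In the last comparison 495 loci had an unadjusted p under 0.05, edgeR called 0 and DESeq2 4. The sign of the difference between miR-92b and Scr rested on Scr sample 1, without which it was 0.17. That between Scr and Control turned to 0.06 without Scr sample 2 and to 0.08 without Scr sample 3.

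The mt-Rnr2 locus did not pass the test in whole cell libraries either. Its log2 fold change was 0.22 ± 0.66 between miR-92b and Scr (limma, adjusted p = 0.959), -0.10 ± 0.66 between miR-92b and Control and -0.32 ± 0.66 between Scr and Control (limma, adjusted p = 1 in both). Removal of miR-92b sample 3, the highest library, turned the first to -0.43.

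**Figure D4:**
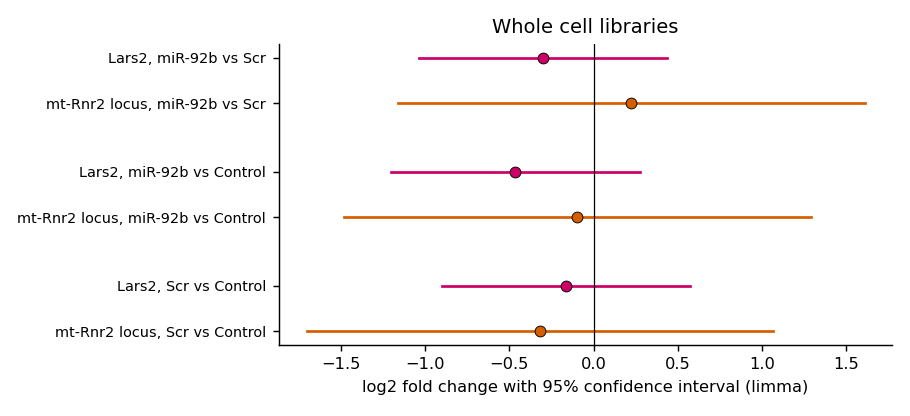
Log2 fold changes of Lars2 and of the mt-Rnr2 locus between treatments in whole cell libraries, as points with 95% confidence intervals from limma. All 6 intervals include 0, and those of the mt-Rnr2 locus are wider than those of Lars2 in each comparison.

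The named genes around Lars2 did not share its nuclear range. Downstream lie Limd1, a LIM domain protein, Sacm1l, a phosphoinositide phosphatase, and Slc6a20b, an amino acid transporter. In nuclear Scr samples 1, 2 and 3, Limd1 had normalized counts of 177, 176 and 319, Sacm1l 120, 227 and 216, and Slc6a20b 236, 379 and 190. Over all nuclear libraries they ranged from 94.9 to 319, from 120 to 259 and from 162 to 379. Only Slc6a20b had its highest nuclear value in the library where Lars2 was highest, and its range was a small part of that of Lars2. Upstream, Tmem158 reached 30.5 in nuclear libraries, Cdcp1 2.57 and Clec3b 10.1. No locus without a symbol lay inside Lars2. The 16 between its end and the next protein-coding gene summed to 97.8 in nuclear Scr sample 2, 75.7 in Scr sample 3 and 19.0 in Control sample 3, against 0 to 39.1 in the other nuclear libraries. The first 2 are the libraries where Lars2 was highest. On the upstream side, 4 such loci summed to 0 in nuclear Scr sample 2, 30.3 in Scr sample 3 and 19.0 in Control sample 3. They were at 0 in the other nuclear libraries. The part of the loci on either side in the counts of Lars2 was not tested.

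The loci that share sequence with mt-Rnr2 or Lars2 were looked at as well. Cep295, a centrosomal gene, had 917, 658 and 515 in nuclear Scr samples 1 to 3 and ranged from 515 to 917 over nuclear libraries, so it was lowest where the mt-Rnr2 locus was highest. Gm20594 was at 0 in every library. The longest coding Lars2 transcript itself aligned to 8 other genes, all in its last exon, whose highest normalized counts over the 18 libraries ran from 0.877 to 2960 (Ifitm10, 82.9% identity over 70 bases). The longest alignment, to AA474408 (highest normalized count 137), had 80.1% identity over 196 bases. With at least 90% identity it aligned to 1 gene, Gm15564, with 98.6% over 72 bases in the last exon, within the 3' UTR (chr9:123462048-123462119). Gm15564, annotated as antisense RNA on chromosome 16, did not exceed 1.52 in any library. This alignment was added after the data were seen.

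**Figure D5:**
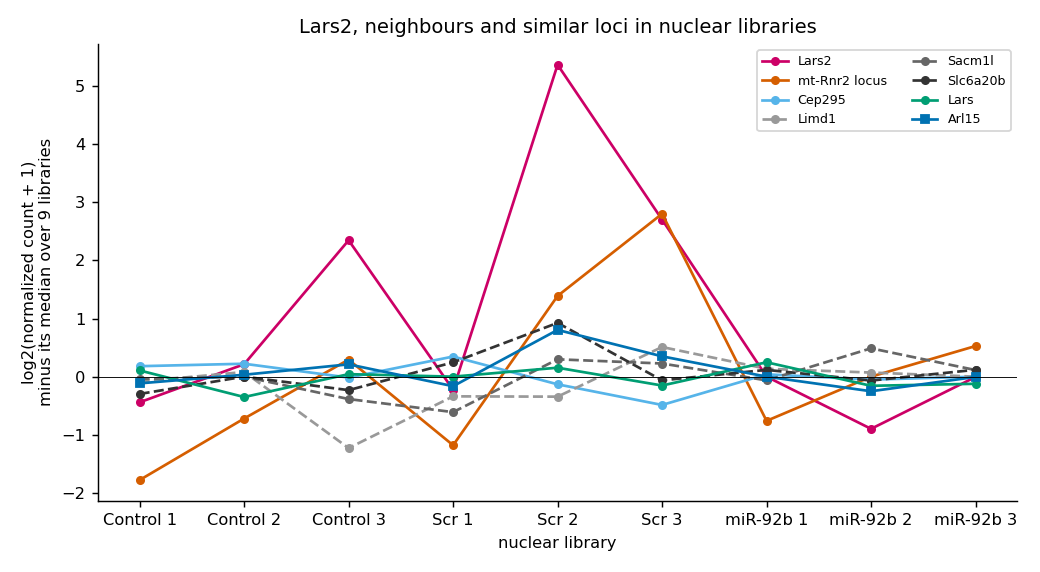
Log2(normalized count + 1) of Lars2, the mt-Rnr2 locus, Cep295, Arl15, Lars and the neighbours Limd1, Sacm1l and Slc6a20b in the 9 nuclear libraries, each relative to its own median over these libraries. Lars2 is high in Control sample 3, Scr sample 2 and Scr sample 3, the mt-Rnr2 locus is highest in Scr sample 3, and the other loci stay within about 1 unit of their median, except for Limd1 in Control sample 3 (94.9).

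The FPKM values of Lars2 followed the counts. They were 70.2, 3663 and 573 in nuclear Scr, 55.1, 97.7 and 445 in nuclear Control, and 81.2, 42.0 and 77.5 in nuclear miR-92b. The ratio of normalized count to FPKM, scaled on 354 single-gene loci whose only annotated transcript has 1000 or more nucleotides, gives the transcript length that the FPKM assumes. For Lars2 this was 1804 to 2034 nucleotides in nuclear and 1853 to 1913 in whole cell libraries, with 1827 in nuclear Scr sample 2. Nuclear Control sample 3 (1804), Scr sample 3 (1817) and Scr sample 2, the nuclear libraries high in Lars2, had the lowest values of all 18 libraries. The next was 1831 in nuclear Control sample 2, and a relation of this length to the level of Lars2 was not tested. All values were shorter than the 3894 nucleotides of the longest coding transcript. The scale is coarse, because the 354 loci ran from 65.8% (5th percentile) to 384% (95th percentile) of their annotated length in nuclear Scr sample 2.

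By Pearson's r on log2(normalized count + 1), the 5 tested loci most like Lars2 over the 9 nuclear libraries were Arl15, an ARF-like GTPase (r = 0.98), the locus of Tmem38b and n-R5s185 (0.96), Eif1a, a translation initiation factor (0.96), 2610001J05Rik (0.96) and Prpsap2 (0.95). Arl15 had normalized counts of 517, 573 and 649 in Control, 500, 978 and 714 in Scr and 560, 470 and 558 in miR-92b samples 1 to 3. It thus ranked the libraries much as Lars2 did, over 2.08-fold in place of 76.8-fold. The locus of Tmem38b and n-R5s185 spanned 24.4-fold, with 395 in Scr sample 2 against at most 47.5 in the other nuclear libraries. Eif1a had 236, 532 and 347 in Scr. All 5 were highest in Scr sample 2, and without it their r lay between 0.86 and 0.95. These are descriptions, since the 5 were picked for high r over libraries that include Scr sample 2. In whole cell libraries Arl15 had r = -0.11 with Lars2.

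Over the 9 whole cell libraries the 5 most alike were Tpm2, a tropomyosin (0.95), Trrap, a scaffold of histone acetyltransferase complexes (0.95), Gm42848 (0.95), Gm37537 (0.94) and Ipo13, an importin (0.94). All 5 were highest in Scr sample 1, as Lars2 was, which is a description, since they were picked for high r over these libraries. In nuclear libraries Trrap had r = -0.57 and Tpm2 -0.63. No locus was among the 5 in both compartments, but lists of 5 out of 15578 loci would rarely share one, so nothing was concluded from this.

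Lars2 was compared with the enzymes of its pathway, a list of 22 mitochondrial aminoacyl-tRNA synthetase and amidotransferase genes, Lars2 included, and 11 mitochondrial translation factors. Without Lars2, 32 loci of the list were tested, and some genes had more than 1 locus. By FPKM, which is relative to length, Lars2 had a median of 385 over whole cell libraries, and 0 of the 32 loci had a higher one. The next was Gars, the glycyl-tRNA synthetase of cytosol and mitochondria, with 93.2. In nuclear libraries the median of Lars2 was 81.2 FPKM, against 54.8 for Gars. FPKM depends on the assumed length, which for Lars2 was shorter than its longest coding transcript. By normalized count the medians of Lars2 and Gars were 1341 and 1201 in nuclear and 5748 and 2022 in whole cell libraries. The nuclear SD of the list had a median of 0.49 on the log2 scale, and 1 member, Qrsl1, an amidotransferase subunit, exceeded that of Lars2 with 2.25. Qrsl1 had a nuclear median of 83.3 normalized counts, with its lowest library at 0. The median r of the list with Lars2 over nuclear libraries was -0.14. Ears2, the glutamyl-tRNA synthetase, was highest with 0.93, and Qrsl1 lowest with -0.88.

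No member of the list passed the test between treatments. In whole cell libraries 0 of 32 were called in each of the 3 comparisons (limma), beside the share of all loci given above, and the median log2 fold change was 0.06 between miR-92b and Scr (all loci -0.01), -0.19 between miR-92b and Control (all loci -0.10) and -0.07 between Scr and Control (all loci -0.09). Members with an unadjusted p under 0.05 numbered 0, 2 and 1, and edgeR and DESeq2 called none. In nuclear libraries, where limma called 0 of all 15579 loci (0%) in each comparison, 0 of 32 were called as well, and edgeR and DESeq2 also called 0 loci. Loci with an unadjusted p under 0.05 numbered 807 between miR-92b and Scr, 39 between miR-92b and Control and 1115 between Scr and Control, of which 1, 0 and 3 were members.

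Between compartments some members changed. Of 32, 4 were higher in nuclear lysates, where 15.3% of all loci were, and 3 were higher in whole cell lysates, where 15.8% were. Higher in whole cell were Kars, the lysyl-tRNA synthetase of cytosol and mitochondria (log2 fold change -2.63 ± 0.21; median 109 in nuclear and 833 in whole cell), Tufm, the mitochondrial elongation factor Tu (-1.93 ± 0.31), and Gars (-0.86 ± 0.12). Higher in nuclear were Guf1, a GTPase of mitochondrial ribosomes (0.82 ± 0.13), Mars2 (0.75 ± 0.20) and Fars2 (0.72 ± 0.25), which load methionine and phenylalanine, and Mtif2, a mitochondrial initiation factor (0.61 ± 0.16; limma, SE, adjusted p between 1.8e-09 and 0.029 for the 7). On FPKM values 1 member was higher in nuclear and 4 in whole cell lysates, and over all loci 1389 and 2515 in place of 2377 and 2454. The median over all loci moved from 0.14 to 0.02 on that scale.

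Lars, the cytosolic leucyl-tRNA synthetase, had a narrower range than Lars2 in nuclear and in whole cell libraries. The nuclear contrast is a description, since the spread of Lars2 there was the reason for its choice. Lars ranged from 2091 to 3165 in nuclear and from 1505 to 2309 in whole cell libraries, with 2666, 2966 and 2399 in nuclear Scr samples 1 to 3. Between miR-92b and Scr its log2 fold change was -0.22 ± 0.20 in whole cell (limma, adjusted p = 0.825) and -0.01 ± 0.16 in nuclear libraries (limma, adjusted p = 0.989). It was higher in nuclear than in whole cell lysates by 0.51 ± 0.10 (limma, adjusted p = 0.00048).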

How the data were processed

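Poly(A) RNA from the pulldowns was sequenced in 18 libraries, 6 groups of 3. Per the labels and the paper, the authors trimmed reads with Trimmomatic 0.30 after bcl2fastq 2.17, aligned them with TopHat2 to GRCm38 (mm10) and quantified loci with Cufflinks and Cuffdiff. For other versions and the annotation: not given in the sources used. The deposited normalized counts are a signal, reads per locus divided by 1 size factor per library, and all 635205 values above 0 were whole multiples of 1 read (within 0.02 reads). The authors' FPKM values are relative to length and depth. The authors' comparison tables (log2 fold changes, p-values and q-values) were not used. No sample column was left unmapped. Loci without a symbol held 4.51% to 15.3% of reads and were left out of tests.

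The tests assumed raw counts as a first choice. Because the files hold normalized counts, limma 3.58.1 with a variance trend (R 4.3.3) was run on log2(normalized count + 1) for loci with a mean of at least 10, two-sided, with Benjamini-Hochberg adjustment over 15579 loci and a threshold of 0.05. Whole cell and nuclear comparisons were fitted on their 9 libraries, and nuclear against whole cell on all 18. Lars2 was not tested where nuclear libraries entered. edgeR 4.0.16 and DESeq2 1.42.0 on the recovered reads were alternatives, besides pseudocounts of 0.5 and 8, filters, FPKM, rescaling, quantile normalization, other models, and each library left out. limma was tested on simulated data. Transcripts of GENCODE M21 were aligned with BLAST+ 2.17.0 (blastn, E-value under 1e-5).

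The gene and the lists were chosen with earlier results of these data known. Named loci were those of Lars2 and of chromosome M, up to 3 neighbours a side, the 5 loci with the highest r in each compartment, genes aligned to mt-Rnr2, list members past the threshold, and Lars. Cep295, Gm20594, Gm15564, Ifitm10, AA474408, Qrsl1 and Ears2 were named after their values were seen. Some of the cell line's markers are not reported here.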

Additional observations from a re-analysis of the deposited data

How the results depend on the processing

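In all 23 alternatives of each comparison Lars2 stayed short of the threshold in whole cell libraries, with log2 fold changes from -0.63 to 0.17 between miR-92b and Scr, from -0.79 to -0.17 between miR-92b and Control and from -0.64 to 0.079 between Scr and Control. The sign turned without whole cell Scr sample 1 (0.17) in the first, and with DESeq2 (0.036), without Scr sample 2 (0.06) and without Scr sample 3 (0.079) in the last. The mt-Rnr2 locus also stayed uncalled, with -0.43 to 0.58 between miR-92b and Scr and -0.75 to 0.26 between miR-92b and Control when a library was left out. Its sign turned between miR-92b and Scr with sample weights (-0.31) and without miR-92b sample 3 (-0.43), and between miR-92b and Control with edgeR (0.19), DESeq2 (0.20), and without miR-92b sample 1 (0.26), miR-92b sample 2 (0.20) or Control sample 3 (0.03). The cause was not tested. The few loci called between miR-92b and Scr (1) became 0 with a mean of at least 1 or 50, no filter, FPKM or the compared groups alone, 3 with sample weights and 37 with DESeq2, and 0 to 3 with a library left out. Between miR-92b and Control (1) they became 17 with a mean of at least 1, 0 with at least 50, no filter, FPKM or the compared groups alone, 4 with sample weights and 5 with DESeq2, and 0 to 15 with a library left out, the highest without miR-92b sample 3. Between Scr and Control (0) they became 17 with a mean of at least 1 and 4 with DESeq2. In nuclear libraries, removal of Scr sample 1 gave 101 called loci between miR-92b and Scr and 194 between Scr and Control, with 0 list members among them. DESeq2 gave no adjusted p for 135 loci in whole cell and 24 in nuclear comparisons. Over all tested loci, libraries of the same sample number showed little likeness. Correlations of their deviations from group means ran from -0.04 to 0.11 over 18 pairs within a compartment. Between compartments they ran from -0.04 to 0.06 over 27 pairs. This does not exclude a pairing seen at only some loci. With the sample number as a replicate block Lars2 gave -0.30, -0.46 and -0.17 in the 3 whole cell comparisons, uncalled as before. With a library left out, the described nuclear differences of Lars2 (log2) ran from -4.33 to -1.54 for miR-92b to Scr. They ran from -1.58 to -0.19 for miR-92b to Control and from 0.53 to 3.33 for Scr to Control. Between compartments they ran from -2.23 to -0.83 in Control and from -2.25 to -1.62 with miR-92b. With Scr they ran from -0.71, without nuclear Scr sample 2, to 2.08. The whole cell correlation kept its sign over its alternatives, from -0.66 to -0.03. At 80% identity over at least 50 bases 1 gene, Gm20594, aligned to mt-Rnr2, and at 95% 0. Alternatives for the rank of the nuclear spread were added after the data were seen: the rank was 2 without nuclear Scr sample 2 and 27 without the 3 high libraries. Lars2 had 684 or more reads in each library.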
